A study of Mus musculus with 7 samples.

Results

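The 44 genes described here encode the Wnt ligands, the Frizzled receptors, 3 co-receptors, the secreted inhibitors and 3 genes of the nuclear and feedback arm of the pathway. They were taken by name from a fixed list, by a rule that used no measured value, out of 20089 protein-coding genes that had a position in both genome builds of the data. There were 19 ligands, 10 Frizzleds, the co-receptors Lrp5, Lrp6 and Ror2, 9 inhibitors (Sfrp1, Sfrp2, Sfrp4, Sfrp5, Frzb, Dkk1, Dkk2, Dkk3 and Wif1), and Axin2, Lef1 and Tcf7. All 44 genes had a position and were counted.

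Active histone marks were mapped by ChIP-Seq in mouse cells in a search for regulatory elements of Sox9, a transcription factor on which cartilage formation depends. From the rib cartilage of newborn mice, primary chondrocytes were profiled for H3K27ac in 2 replicates and for H3K4me2 in 1 library. As a negative control, dermal fibroblasts from the dorsal skin of newborns were profiled for H3K27ac in 1 library. For these 4 libraries the labels named no genotype. H3K27ac was also mapped in rib chondrocytes of a wild type (WT) and of the genotype E160Δ/Δ E308Δ/Δ, 1 library each. In the latter, genome editing in C57BL/6J embryos had removed the Sox9 enhancers E160 and E308 from both alleles. Whether cells of several animals were pooled was not given in the sources used here, and chondrocytes of up to the second passage counted as primary. No treatment was named for any group. The acetylation H3K27ac marks promoters and enhancers in use, while the methylation H3K4me2 also marks poised ones.

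Wnt proteins are secreted lipid-modified ligands that bind a Frizzled receptor together with a co-receptor. With Lrp5 or Lrp6 as the co-receptor, they stabilise beta-catenin, which enters the nucleus and activates genes such as Axin2 through Tcf7 and Lef1, whereas Ror2 carries signals of Wnt5a that do not need beta-catenin. In cartilage, Wnt activity is known to restrain the early commitment to chondrocytes and to promote their later maturation, and the secreted inhibitors set how much ligand reaches the receptor.

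Only chondrocyte H3K27ac had replicates, so no test between groups was run and every other list stood for 1 library. The lists held 19458 to 66369 peaks that covered 18.3 to 92.2 Mb of chromosomes 1 to 19 and X, with the most for H3K4me2, and their read depth is unknown. A gene without a peak is therefore one where none was called, and fewer marked cells cannot be told apart from a weaker mark in each cell. Most chondrocyte markers fitted the labels. Promoter H3K27ac lay at 10 and 11 of 14 genes in the replicates, 11 in WT, 11 in the deletion list and 1 in fibroblasts (Sox9). Replicate 1, however, had no promoter peak at Col2a1 or Sox9, which replicate 2, WT and the deletion list marked. Fibroblast markers fitted the labels only in part. Promoter peaks were called at 4 of 8 in the fibroblast list but at 4 and 7 in the replicates and at 7 in each of WT and the deletion list, and Col1a1, Col1a2 and Col3a1 were marked in all 4 chondrocyte H3K27ac lists and not in fibroblasts. Markers of keratinocytes, blood and muscle had no promoter H3K27ac in any list, Tek of the endothelial markers was marked in fibroblasts, and Sp7 of the osteoblast markers in WT. What part this mix of markers had in the Wnt gene results was not tested.

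Promoters counted as marked if any part of a peak lay no more than 1 kb from the transcription start site (TSS). The receptor side of the pathway carried promoter H3K27ac in both cell types, whereas the ligands and the inhibitors were nearly bare of it in chondrocytes. In chondrocyte replicates 1 and 2, 11 and 13 of the 44 promoters had H3K27ac, a mean of 27.3% ± 3.21 (SD, n = 2), while 44.2% and 44.5% of all genes did. In both replicates 11 were marked, against 39.7% of all genes, and in either replicate 13, against 49%. In fibroblasts 20 of 44 were marked (45.5%), close to the 47.6% of all genes. WT had 16 and E160Δ/Δ E308Δ/Δ chondrocytes 15, where all genes gave 50.1% and 47.2%. H3K4me2 lay at 42 of the 44 (95.5%), with a share of 66.1% over all genes.

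By role, chondrocyte H3K27ac marked 1 of 19 ligands, 7 and 8 of 10 Frizzleds, 2 and 3 of 3 co-receptors and 0 of 9 inhibitors in replicates 1 and 2. Fibroblasts marked 2 ligands, 9 Frizzleds, 3 co-receptors and 3 inhibitors, and all 3 of Axin2, Lef1 and Tcf7, of which the chondrocyte replicates marked Axin2 only. The number of Frizzleds marked in both replicates (7) and in fibroblasts (9) depended on how many peaks were kept, with 4 and 6 in the higher-scoring 50% of each list and 4 and 9 with equal numbers of top peaks. The genes marked in fibroblasts alone came from every role but the co-receptors. Of the promoters marked in either replicate, 11 of 13 were marked in both (84.6%), against 81.0% over all genes. The remaining pair, Fzd5 and Lrp5, was marked in replicate 2 alone, while 9.31% of all genes were marked in 1 replicate only.

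**Figure D1:**
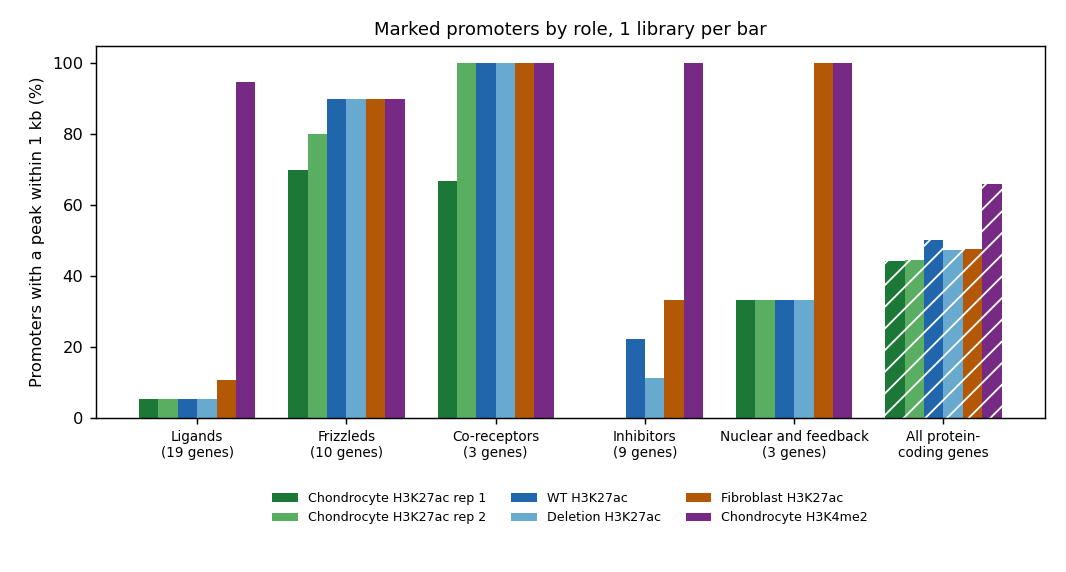
Share of promoters with a peak within 1 kb of the TSS (y axis, percent) for each role and for all protein-coding genes (hatched), with 1 bar per peak list. Frizzleds and co-receptors stood above all genes in each list, ligands had H3K4me2 at 18 of 19 but chondrocyte H3K27ac at 1, and inhibitors had H3K4me2 at 9 of 9 and H3K27ac at 0 in the replicates.

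A set of 5 promoters shows the range of these states, printed here as the 250 bases before the TSS on the gene's own strand (RefSeq, GRCm38.p6), with CpG dinucleotides in capitals. Axin2 had a peak in all 6 lists (chr11:108920099-108920348, plus strand). Fzd9 was marked in both chondrocyte replicates and not in fibroblasts (chr5:135251048-135251297, minus strand), and Sfrp2 in fibroblasts and in no chondrocyte H3K27ac list (chr3:83766071-83766320, plus strand). Frzb had the highest-ranked H3K4me2 among promoters without chondrocyte H3K27ac (chr2:80447397-80447646, minus strand), and Wnt8b had no promoter peak in any list (chr19:44493222-44493471, plus strand).
Axin2 promoter: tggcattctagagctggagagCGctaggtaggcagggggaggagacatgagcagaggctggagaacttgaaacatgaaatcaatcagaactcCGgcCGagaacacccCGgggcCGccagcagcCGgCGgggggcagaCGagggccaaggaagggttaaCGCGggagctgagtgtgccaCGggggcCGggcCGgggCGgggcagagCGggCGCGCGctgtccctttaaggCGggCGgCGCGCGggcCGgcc
Fzd9 promoter: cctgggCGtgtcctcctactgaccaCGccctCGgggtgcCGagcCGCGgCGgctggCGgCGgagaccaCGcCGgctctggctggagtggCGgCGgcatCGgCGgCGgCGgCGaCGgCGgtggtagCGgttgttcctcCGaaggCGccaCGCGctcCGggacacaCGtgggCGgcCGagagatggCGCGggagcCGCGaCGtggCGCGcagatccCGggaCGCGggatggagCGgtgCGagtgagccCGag
Sfrp2 promoter: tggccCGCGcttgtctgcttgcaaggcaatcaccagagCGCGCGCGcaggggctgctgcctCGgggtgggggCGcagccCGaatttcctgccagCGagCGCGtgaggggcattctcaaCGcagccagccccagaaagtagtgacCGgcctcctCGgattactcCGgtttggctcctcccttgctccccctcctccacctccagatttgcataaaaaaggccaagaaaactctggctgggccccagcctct
Frzb promoter: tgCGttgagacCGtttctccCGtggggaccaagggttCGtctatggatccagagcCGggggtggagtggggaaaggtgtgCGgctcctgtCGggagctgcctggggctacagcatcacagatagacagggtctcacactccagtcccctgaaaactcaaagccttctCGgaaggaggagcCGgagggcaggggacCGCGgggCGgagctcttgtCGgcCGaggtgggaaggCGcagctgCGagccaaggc
Wnt8b promoter: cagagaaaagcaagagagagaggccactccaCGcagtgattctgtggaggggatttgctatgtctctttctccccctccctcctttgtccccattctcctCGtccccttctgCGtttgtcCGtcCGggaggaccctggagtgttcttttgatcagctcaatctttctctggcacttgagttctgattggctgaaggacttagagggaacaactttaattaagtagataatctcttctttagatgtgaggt
The Fzd9 promoter held 42 CpG, Axin2 24, Sfrp2 and Frzb 16 each and Wnt8b 5, while the median over 16137 promoters of this length was 11. The unmarked Wnt8b promoter had the fewest of the set, and Sfrp2 and Frzb, which differed in H3K27ac, had the same number. Whether CpG number and the marks are related was not tested. The letters CTTTGAT on either strand, the core of a motif bound by Tcf7 and Lef1, occurred in none of the 5 windows and in 2.86% of all promoters. A RefSeq promoter was matched for 31 of the 44 genes, with a median of 23 CpG, and for 16137 of all 20089 genes. The unmatched members, Wnt5a among them, were left out, so that base composition over the whole set was not compared.

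Among the ligands, Wnt5a stood alone. Wnt5a, a ligand best known for signalling without beta-catenin and for limb and growth plate elongation (chr14:29317936-29340633, mm9), was the only ligand with promoter H3K27ac in chondrocytes and had a promoter peak in all 6 lists. Ranks are given as the top percent of a list by the authors' score, since scores cannot be compared between lists. Its peak was 3082 bp wide in replicate 1 (top 25.5%), 1912 bp in replicate 2 (top 31.1%), 4382 bp in WT (top 7.84%), 3547 bp in E160Δ/Δ E308Δ/Δ (top 11.9%) and 4483 bp in fibroblasts (top 59.5%), with 4550 bp of H3K4me2 (top 31.5%). The fold enrichment over background deposited with 3 of the lists was 8.16 at this promoter in replicate 2, 31.2 in the WT list and 20.3 in the deletion list. It ranked lowest in fibroblasts although the fibroblast peak was among the widest. Downstream of the gene, a peak at about 28 kb from the TSS was called in replicate 1, WT, the deletion list and H3K4me2, and in neither replicate 2 nor fibroblasts.

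Wnt9a, a ligand that takes part in joint formation, was the only other ligand with promoter H3K27ac, and had it in fibroblasts alone (597 bp, top 59.2%). No chondrocyte H3K27ac list had a promoter peak there, and within its window WT had a pair of small peaks of 211 and 238 bp about 40 kb downstream of the TSS and the replicates had none. H3K4me2 covered 4068 bp of the Wnt9a promoter (top 30.9%).

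Promoter H3K4me2 without H3K27ac in either chondrocyte replicate was found at 17 of the 19 ligands, of which 16 lacked promoter H3K27ac in all 5 H3K27ac lists as well. The best ranked of these H3K4me2 promoters were Wnt9b (1610 bp, top 1.62%), Wnt2 (2647 bp, top 1.92%), Wnt16 (2377 bp, top 7.18%), Wnt6 (a pair, the wider of 2010 bp, top 8.94%) and Wnt5b (1838 bp, top 8.97%). At the other end, Wnt8a had 480 bp of H3K4me2 (top 96.6%) and Wnt3a 601 bp (top 73.6%). Wnt8b had no promoter peak in any list, as had 31.4% of all genes.

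Around the ligands, 31 replicate 1 peaks lay in the gene bodies or flanks, and 10 of them reached within 1 kb of the TSS of another gene, as did 8 of 24 in replicate 2, 10 of 45 in WT, 9 of 39 in the deletion list and 11 of 28 in fibroblasts. Many peaks of the highest rank were of this kind. The 3 highest-ranked peaks of each list in the bodies or flanks of all 44 genes were taken, and 16 of these 18 lay at such a TSS. They were not separate places, since the peaks at Fbxl14, Skp1a, Arf1 and Gosr2 each recurred in more than 1 list. The share among the top-ranked peaks of all genes was not computed. In the body of Wnt5b the peak at Fbxl14 ranked in the top 5.72%, 0.279%, 0.252%, 0.159% and 2.36% of replicate 1, replicate 2, WT, the deletion list and fibroblasts. The peaks at Skp1a beside Tcf7, Arf1 beside Wnt3a, Gosr2 beside Wnt9b and Fam13b beside Wnt8a were of the same kind, and for H3K4me2 those at Wnt9b beside Wnt3 and at 1810055G02Rik beside Lrp5. The exceptions were an H3K4me2 peak of 2357 bp at −29.8 kb from Wnt7a (top 2.61%) and a replicate 1 peak of 2676 bp at −32.4 kb from Wnt2b (top 3.75%), and both had a partner in all of the remaining 4 lists on mm9. The ligand pairs Wnt1 and Wnt10b, Wnt3 and Wnt9b, Wnt3a and Wnt9a, and Wnt6 and Wnt10a lie 6.20 to 24.3 kb apart and share peaks, which were counted once in all shares below.

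The Frizzleds are the receptors that bind Wnt ligands through an extracellular cysteine-rich domain. Fzd1, Fzd2, Fzd4, Fzd6 and Fzd7 had a promoter peak in all 6 lists. With Wnt5a, Lrp6, Ror2 and Axin2 they made up 9 of the 44 genes, while 37.2% of all genes were marked in all 6. Fzd2 carried wide promoter peaks, of 5832 and 2883 bp in replicates 1 and 2, 5066 bp in WT, 5019 bp in the deletion list and 5641 bp in fibroblasts. Fzd7 had 1627, 2907, 5703, 5284 and 3146 bp in the same order, and Fzd1 had 2290, 2074, 4538, 4012 and 3004 bp, the wider one where a pair was called. All of these were wider than the median promoter peak of the 44 genes in their list, which was 1481, 993, 1808, 1579 and 1136 bp in that order. The promoters of Fzd4 and Fzd6 carried small peaks in replicate 1, of 392 and 389 bp (top 81.3% and 81.8%), and 1547 and 778 bp in fibroblasts (top 39.0% and 52.6%). The replicate 1 peak counted for Fzd4 ended upstream of the TSS, over an exon of the neighbouring gene Tmem135, and overlapped no fibroblast peak. In replicate 2 the Fzd4 peak covered the TSS.

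At the promoters of Fzd7 and Fzd8 the H3K4me2 and H3K27ac lists differed. Fzd7, with H3K27ac in the top 33.2% of replicate 1 and the top 8.86% of WT, had an H3K4me2 peak of 7328 bp that stood in the top 97.7% of its list. Fzd8 had H3K27ac in all 5 H3K27ac lists (1481 bp in replicate 1 and 1294 bp in fibroblasts) and no H3K4me2 peak within 1 kb. Promoter H3K27ac in either replicate without H3K4me2 was found at 2.19% of all genes.

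Fzd9 was the only member marked in both chondrocyte replicates and not in fibroblasts, while 1.76% of all genes were. Its promoter peaks were small, of 518 bp (top 85.3%) and 550 bp (top 76.3%) in the replicates, 531 bp in WT (top 45.7%) and 201 bp in E160Δ/Δ E308Δ/Δ (top 91.3%), over an H3K4me2 peak of 4700 bp (top 18.9%). All 4 chondrocyte H3K27ac lists had a peak within 1 kb of the TSS, at low rank in the replicates and the deletion list. They were not all at the same place. The replicate 1 peak lay wholly upstream of the TSS and overlapped neither the WT peak nor the deletion peak, while the replicate 2 peak covered the TSS. The fibroblast list had no peak in the whole window of 50 kb on each side. Upstream of the gene (chr5:135724808-135727100, mm9), H3K27ac was called in all 4 chondrocyte lists near −7.5 kb, near −13 kb and near −24 kb. The first of these ranked highest and above the promoter itself in each list, with widths of 1668 bp in replicate 1 (top 19.96%), 836 bp in replicate 2 (top 35.2%), 1202 bp in WT (top 19.99%) and 1088 bp in the deletion list (top 28.5%). In mm9 it is intergenic, as are all peaks of the upstream group. All 7 replicate 1 peaks of the Fzd9 window overlapped an H3K4me2 peak and none a fibroblast peak. A downstream pair at 27.3 and 28.2 kb, inside Baz1b, was called in replicate 1 and H3K4me2 and in none of replicate 2, WT and the deletion list.

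The central 300 bases of the best-ranked distal peak of Ror2 in replicate 1, described below (mm9, chr13:53249941-53250240, plus strand), are printed because this region carried H3K27ac in all 4 chondrocyte lists and not in fibroblasts. CpG dinucleotides are in capitals.
Ror2 distal peak: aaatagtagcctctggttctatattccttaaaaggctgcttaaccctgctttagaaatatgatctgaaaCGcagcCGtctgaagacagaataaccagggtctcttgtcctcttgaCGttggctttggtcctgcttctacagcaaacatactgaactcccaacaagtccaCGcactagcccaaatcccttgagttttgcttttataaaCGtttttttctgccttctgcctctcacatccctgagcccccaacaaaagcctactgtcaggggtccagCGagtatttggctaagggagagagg
The window held 6 CpG, where the median over 16032 such windows at replicate 1 peaks away from any TSS was 3. On neither strand did it hold ACAATG, the core of a Sox motif, or CTTTGAT. Over all such windows 12.7% held the first and 4.77% the second, and of the 78 windows near the 44 genes 6 (7.69%) and 0 did.

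Fzd6 was marked in all lists at its promoter, but its flanks were not alike. At about 36 and 41 kb from the TSS (chr15:38837879-38869732, mm9), intergenic peaks were called in replicate 1 (2721 bp, top 16.8%, and 2351 bp, top 28.5%), replicate 2, WT and the deletion list. Another lay at 71.7 kb in replicate 1, over an exon of Cthrc1 (2420 bp, top 28.9%), and was likewise called in all 4. Fibroblasts had the promoter peak of 778 bp and no other in this window. Fzd2 was the opposite case. Of its 7 replicate 1 peaks, 6 had a fibroblast partner, and the fibroblast list also had 7 peaks there.

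Fzd3 and Fzd10 were marked in fibroblasts and in neither replicate. The fibroblast peaks were narrow, 430 bp at Fzd3 (top 86.4%) and 475 bp at Fzd10 (top 98.4%), among the lowest of the list. Fzd3 also had promoter peaks of 547 bp in WT and 215 bp in the deletion list, while Fzd10 had none in any chondrocyte H3K27ac list and an H3K4me2 peak of 3286 bp (top 9.29%). Fzd5 was marked in fibroblasts (898 bp), replicate 2 (404 bp), WT (1754 bp) and the deletion list (1352 bp), and not in replicate 1.

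The co-receptors had more H3K27ac peaks inside and around them than any other role, with a median of 9 peaks a gene in replicate 1 where all genes had 2. They are also long genes, of 102 to 177 kb, and the part of length in these counts was not tested. Lrp6, which with Lrp5 passes the signal on to beta-catenin (chr6:134396494-134516983, mm9), had a promoter that stood high in each H3K27ac list. Its peak was in the top 7.25% and 0.156% of the replicates, 0.111% of WT, 0.274% of the deletion list and 0.422% of fibroblasts, and was 1606 to 3162 bp wide. The promoter thus did not separate the cell types, but the rest of the window did. Including the promoter, Lrp6 had 9 and 6 peaks in the replicates, 25 in WT, 13 in the deletion list and 2 in fibroblasts, and 8 of the 9 replicate 1 peaks had no fibroblast partner. Of these 8, 5 lay in introns of Lrp6.

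Ror2, the receptor tyrosine kinase for Wnt5a whose loss shortens the limbs (chr13:53204681-53381493, mm9), was marked at the promoter in all lists. That peak was 1223 bp (top 44.1%) and 990 bp (top 37.1%) in the replicates, 1861 bp in WT (top 19.2%), 1579 bp in E160Δ/Δ E308Δ/Δ (top 20.7%) and 2014 bp in fibroblasts (top 15.2%). In and around the gene there were 13 and 4 peaks in the replicates, 16 in WT, 10 in the deletion list and 7 in fibroblasts, and 11 of the 13 had no fibroblast partner. The best ranked of them in replicate 1 lay in an intron at 131 kb from the TSS (1800 bp, top 14.1%), and was also called in replicate 2 (1048 bp), WT (1260 bp) and the deletion list (1206 bp) and overlapped H3K4me2. Fibroblasts had intronic peaks of their own at 10.2, 80.4 and 102 kb, and one at 84.0 kb that was shared with the chondrocyte lists. Lrp5 had 5, 6, 13, 8 and 4 peaks in replicate 1, replicate 2, WT, the deletion list and fibroblasts. Of its 5 replicate 1 peaks, 1 lacked a fibroblast partner, the lowest share of the co-receptors. The peaks with a partner were the 4 in the flanks, at or beside Ppp6r3 and 1810055G02Rik. The 1 inside Lrp5 was the one without. In WT, 8 of 13 lacked a fibroblast partner.

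**Figure D2:**
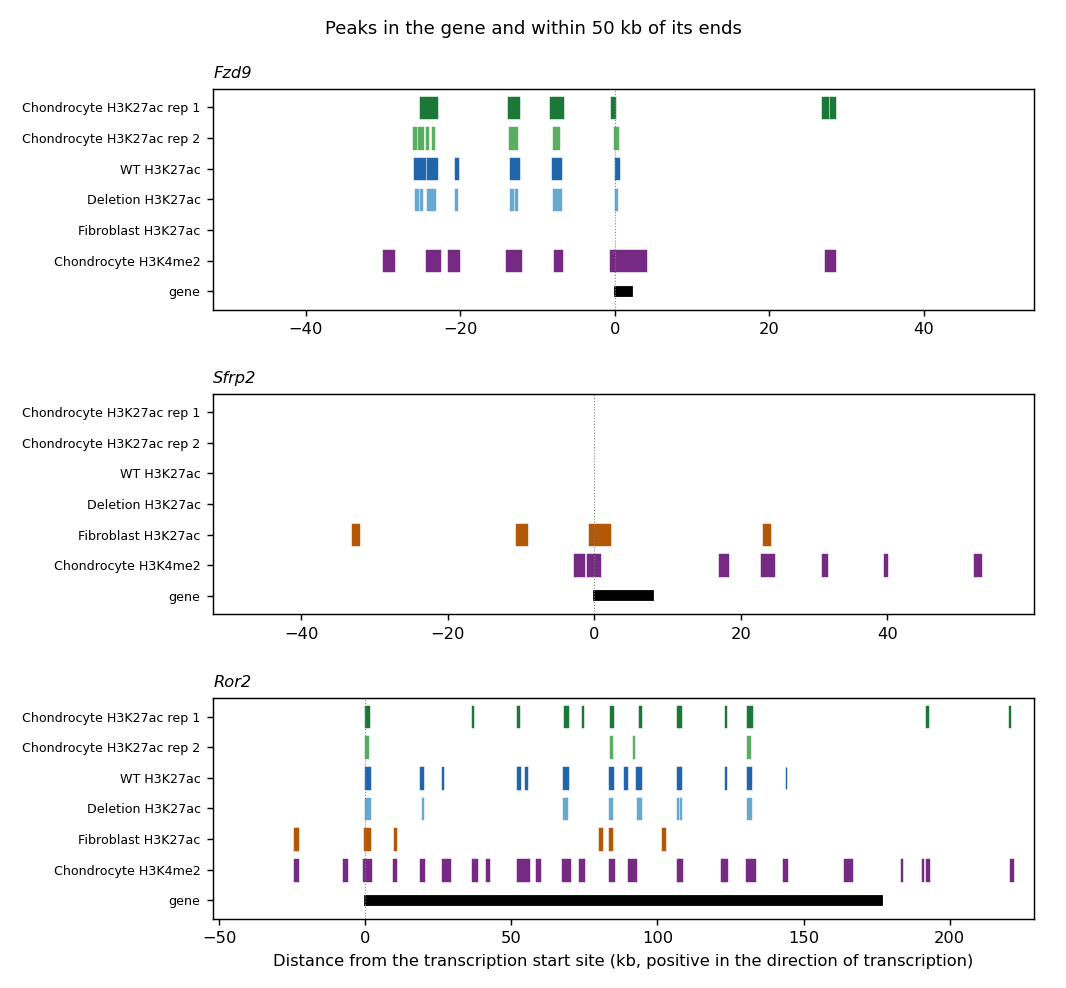
Peaks of the 6 lists (rows) around Fzd9, Sfrp2 and Ror2, drawn to scale by distance from the TSS (x axis, kb, positive in the direction of transcription), with the gene in black. Fzd9 had H3K27ac upstream in the 4 chondrocyte lists and 0 fibroblast peaks, Sfrp2 had 4 fibroblast peaks and 0 chondrocyte H3K27ac peaks, and Ror2 had peaks of both cell types along its introns.

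Among the secreted inhibitors, H3K4me2 and H3K27ac were far apart in the chondrocyte replicates. All 9 had promoter H3K4me2 and none had promoter H3K27ac in either replicate, and 6 of them (Sfrp4, Sfrp5, Frzb, Dkk1, Dkk2 and Wif1) had none in any list. Frzb, a secreted Frizzled-related protein that was first isolated from cartilage (chr2:80252127-80287782, mm9), had an H3K4me2 promoter peak of 3870 bp in the top 0.714% of its list. Its whole window held 1 H3K27ac peak, of 397 bp, in an intron and in replicate 1 alone. Wif1, which binds Wnt ligands directly, had an H3K4me2 promoter peak of 3416 bp (top 3.23%) and 0 fibroblast peaks in its window. An intergenic H3K27ac peak at about 117 kb from its TSS was called in replicate 1 (1753 bp, top 25.5%), WT (1358 bp) and the deletion list (739 bp), not in replicate 2, and of the H3K27ac lists only replicate 1 had its intronic peak at 22.2 kb (1244 bp).

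Sfrp2, a soluble Frizzled-like protein that is abundant in dermal fibroblasts (chr3:83570243-83578238, mm9), was the clearest fibroblast case. The fibroblast list had a promoter peak of 2875 bp (top 13.2%) and intergenic peaks at −32.5, −9.88 and 23.5 kb, of which the last overlapped an H3K4me2 peak of chondrocytes. No H3K27ac peak was called anywhere in the Sfrp2 window in the replicates, WT or the deletion list, although H3K4me2 lay at the promoter (1858 bp, top 16.6%) and at 6 other places. Among the 8 promoters marked in fibroblasts and in neither replicate, that of Sfrp2 had the best rank and the largest width, since the other 7 were 429 to 978 bp wide.

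Sfrp1 and Dkk3 were marked in fibroblasts and in neither replicate, but also in WT. Sfrp1 had 978 bp in fibroblasts (top 56.8%) and 802 bp in WT (top 60.8%). It was the only one of the 44 marked in WT and not in the deletion list, where 2.91% of all genes were, and all 4 WT peaks in its window lacked a deletion partner. Dkk3, a Dickkopf family member with little known effect on Lrp6, had 763 bp in fibroblasts (top 75.4%), 942 bp in WT (top 44.0%) and 233 bp in the deletion list (top 53.7%). Over its window WT and the deletion list each had 11 peaks, against 1 in replicate 1, 0 in replicate 2 and 3 in fibroblasts, so that the 4 chondrocyte H3K27ac lists disagreed at this gene. Dkk1 and Dkk2, which block Lrp5 and Lrp6, had no H3K27ac peak in their windows in either replicate.

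Axin2, a direct target of beta-catenin that feeds back on the pathway (chr11:108781663-108812097, mm9), was marked in all 6 lists. Its H3K27ac peak spanned 677 bp (top 44.3%) and 993 bp (top 16.7%) in replicates 1 and 2, 2215 bp in WT (top 5.22%), 1732 bp in E160Δ/Δ E308Δ/Δ (top 5.20%) and, in fibroblasts, a pair of 468 and 818 bp (top 42.7% for the narrower). No other H3K27ac peak lay in its window in the 4 chondrocyte lists. The factors Lef1 and Tcf7, which bring beta-catenin to DNA, had promoter H3K27ac in fibroblasts only, of 692 bp (top 49.6%) and 429 bp (top 88.0%), with H3K4me2 of 3319 bp at Lef1 (top 10.9%) and a pair of peaks at Tcf7. Near the 3′ end of Tcf7, at 29 to 31 kb from the TSS, peaks were called in both replicates and WT and in neither the deletion list nor fibroblasts.

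**Figure D3:**
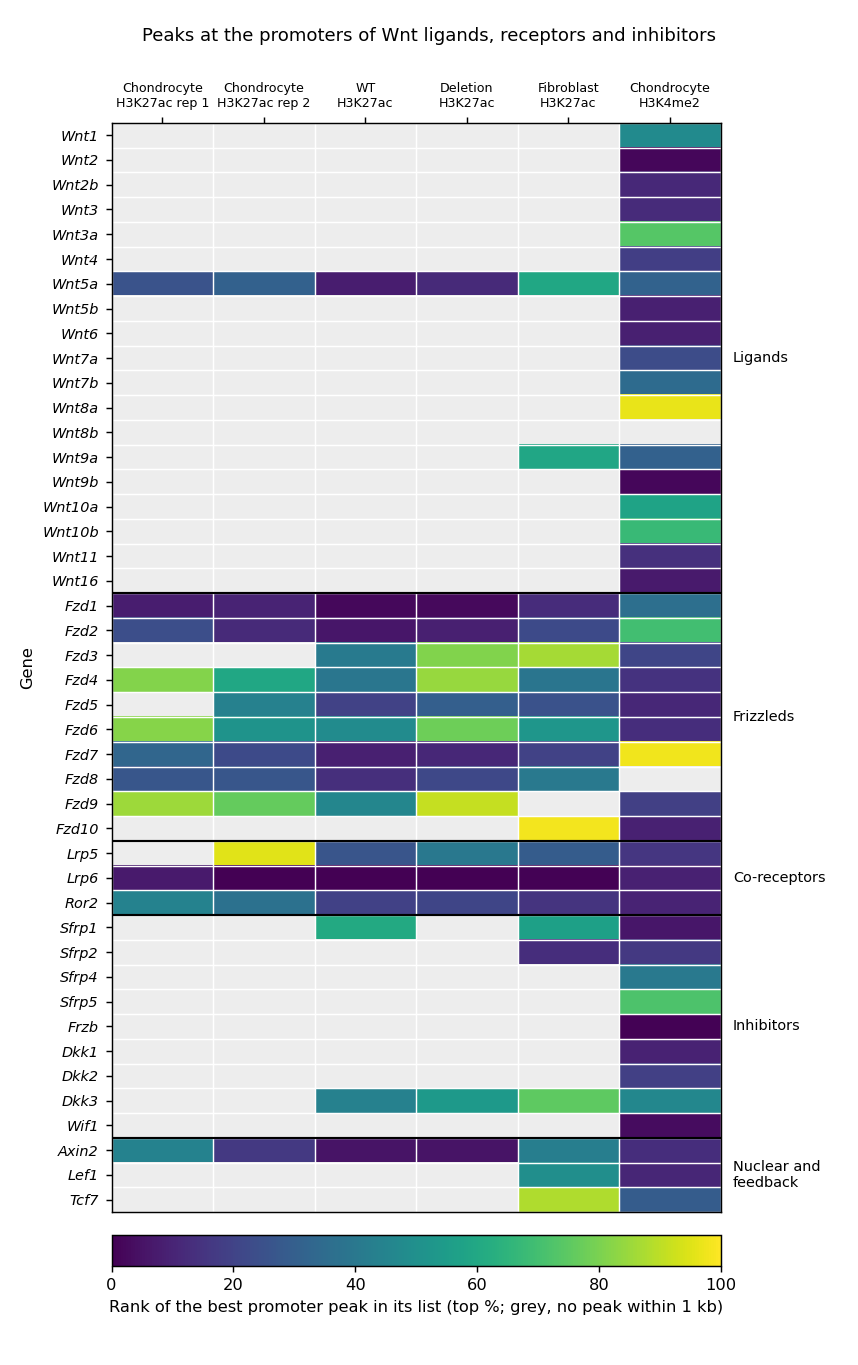
Best promoter peak of each of the 44 genes (rows) in each of the 6 lists (columns), coloured by its rank within that list (top percent, dark for high score, grey for no peak within 1 kb of the TSS). Grey fills 18 of 19 ligand rows and 9 of 9 inhibitor rows in the 2 replicate columns, while 1 ligand, Wnt8b, is grey in the H3K4me2 column.

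At promoters, then, chondrocytes and fibroblasts differed mainly in 1 direction. In fibroblasts and in neither replicate, 8 promoters were marked (Wnt9a, Fzd3, Fzd10, Sfrp1, Sfrp2, Dkk3, Lef1 and Tcf7), where 3.74% of all genes were. In both replicates and not in fibroblasts, 1 was marked, which is 1 of the 11 marked in both, against 4.42% of all genes marked in both. Of the 20 members marked in fibroblasts, these 8 lacked both replicates, against 7.86% of all genes marked in fibroblasts. With WT and the deletion list also required to be empty, 5 were left (Wnt9a, Fzd10, Sfrp2, Lef1 and Tcf7), with 1.66% of all genes. With the higher-scoring 50% of each list, 4 genes were called, of which Sfrp2 and Lef1 were among the 8.

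Away from promoters the balance was different. With promoter peaks left out, 10, 8, 12, 8 and 6 of the 44 genes had an H3K27ac peak in the gene body in replicate 1, replicate 2, WT, the deletion list and fibroblasts, where 20.4%, 14.1%, 21.3%, 16.6% and 15.4% of all genes did. In the flanks of 50 kb, 32, 24, 32, 31 and 29 had one in the same order, where 64.7%, 58.4%, 65.7%, 61.1% and 63.3% of all genes did. These shares lay near those of all genes. Replicate 1 had 111 peaks in the genes or within 50 kb, and 66 of them (59.5%; 95% CI, 49.7–68.7; exact binomial, Clopper-Pearson) overlapped no fibroblast peak, while 44.1% (43.4–44.7) of the peaks near all genes did not. These intervals cover counting error only and treat peaks as independent. The share was 34.4% (18.6–53.2) of 32 peaks for the ligands, 65.6% (46.8–81.4) of 32 for the Frizzleds, 74.1% (53.7–88.9) of 27 for the co-receptors and 75% (42.8–94.5) of 12 for the inhibitors. Without the co-receptors it was 54.8% (43.5–65.7) of 84. Counting only peaks more than 1 kb from any TSS, 63 of 78 near the 44 genes (80.8%; 70.3–88.8) lacked a fibroblast partner, with 69.0% (68.1–69.8) near all genes. In the higher-scoring 50% of each list the share fell to 37.3% of 51 peaks, below the 39.9% near all genes, whereas with equal numbers of top peaks in each list it was 52.4% of 84, above the 36.4% near all genes.

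In the other direction, 44 of 84 fibroblast peaks (52.4%; 41.2–63.4) had no replicate 1 partner, with 34.1% (33.4–34.8) near all genes. For the inhibitors 12 of 15 had none (80%; 51.9–95.7), among them all 4 of Sfrp2, both of Dkk2, both of Sfrp1 and all 3 of Dkk3. The ligands again had the lowest share, 34.5% (17.9–54.3) of 29. Their windows include peaks at the TSS of other genes, 10 of 31 body and flank peaks in replicate 1 and 11 of 28 in fibroblasts. What part these had in the low ligand shares of both directions was not tested.

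H3K4me2 was called at more of the 44 genes than H3K27ac. All 44 genes had an H3K4me2 peak in their flanks and 24 in the gene body, where 83.1% and 38.3% of all genes did, and 30 of 44 had promoter H3K4me2 without promoter H3K27ac in either replicate, against 19.3% of all genes. In the gene body, with promoter peaks left out, the Frizzleds had H3K4me2 at 0 of 10. They had H3K27ac there at 1, 2, 2 and 1 in replicate 1, replicate 2, WT and the deletion list. All Frizzled genes but Fzd3 and Fzd6 are short, of 2.29 to 7.19 kb. At Fzd7 and Fzd9 the promoter H3K4me2 peak spanned the whole gene. The part of gene length in these counts was not tested. The 30 with promoter H3K4me2 alone were 17 ligands, 9 inhibitors, Fzd3, Fzd10, Lef1 and Tcf7. Among genes with promoter H3K4me2 they were 30 of 42, with 29.2% for all genes, and 22 of them lacked promoter H3K27ac in all 5 lists (14.1% of all genes). By rank these 30 peaks resembled the others of the kind. Their median was the top 17.7% of the H3K4me2 list, beside 14.8% for the 3877 genes in the same state, and 17 of 30 (56.7%) stood in the top 20%, beside 58.7%.

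Over the whole windows, 231 of 329 H3K4me2 peaks (70.2%; 65.0–75.1) overlapped no replicate 1 H3K27ac peak, with 62.0% (61.6–62.4) near all genes. The share was 84.2% (72.1–92.5) of 57 peaks for the inhibitors, 74.0% (65.3–81.5) of 123 for the ligands, 60.9% (48.4–72.4) of 69 for the Frizzleds and 56.6% (42.3–70.2) of 53 for the co-receptors. More than 1 kb from any TSS the shares near the 44 genes and near all genes were alike, both 73.0% (66.9–78.4 and 72.6–73.5). The excess of H3K4me2 without H3K27ac was thus not seen away from start sites. Conversely, 10 of the 111 replicate 1 H3K27ac peaks (9.01%; 4.41–15.9) had no H3K4me2 partner, with 9.27% (8.89–9.66) near all genes.

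**Figure D4:**
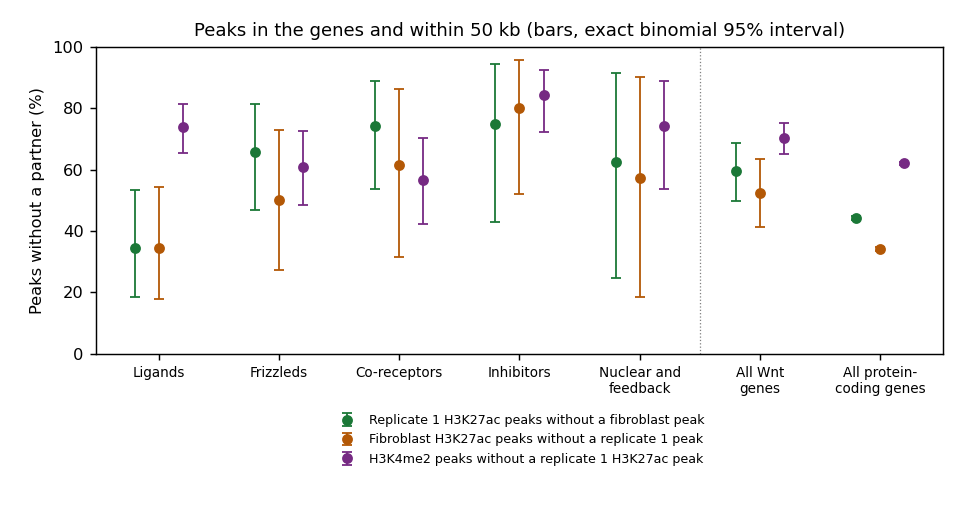
Share of peaks without a partner (y axis, percent) in the genes and within 50 kb, by role, for the 44 genes and for all protein-coding genes, with points for the share and bars for exact binomial 95% intervals. Ligands had the lowest share of replicate 1 peaks without a fibroblast partner (34.4%), with peaks at the TSS of other genes counted. Inhibitors had the highest share of H3K4me2 peaks without H3K27ac (84.2%), while the intervals of most roles overlapped.

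Loss of E160 and E308 was accompanied by few differences at these promoters. WT and the deletion list agreed on 15 promoters, WT alone had Sfrp1, and the deletion list alone had 0, where 0.00498% of all genes were. Over the windows, 65 of 172 WT peaks (37.8%; 30.5–45.5) had no deletion partner, with 35.1% (34.5–35.6) near all genes, and 1 of 126 deletion peaks lacked a WT partner (0.794%; 0.0201–4.34), with 1.04% (0.916–1.19). The deletion list, which was the smaller, was nearly contained in WT everywhere. The share of WT peaks without a partner was 51.9% (37.8–65.7) of 54 for the co-receptors, with 14 of 25 at Lrp6 and 8 of 16 at Ror2. It was 48.0% (27.8–68.7) of 25 for the inhibitors, 57.1% (18.4–90.1) of 7 for the nuclear and feedback genes, 26.1% (14.3–41.1) of 46 for the ligands and 22.5% (10.8–38.5) of 40 for the Frizzleds. In the higher-scoring 50% of each list, 43 of 91 WT peaks near the 44 genes (47.3%) had no partner, with 27.7% near all genes. At Fzd9 none of the 6 WT peaks lacked a partner, and at Dkk3 3 of 11 did.

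The order of roles was not the same among a further 43 genes of the pathway, where nuclear genes led. H3K27ac was at 20, 22, 28, 26 and 24 of their promoters in replicate 1, replicate 2, WT, the deletion list and fibroblasts, and H3K4me2 at 37. All genes gave 44.2%, 44.5%, 50.1%, 47.2% and 47.6% in the same order, and 66.1% for H3K4me2. In both replicates 17 of the 43 were marked, close to the 39.7% of all genes. Both replicates marked 6 of 11 cytoplasmic genes (such as Apc and Gsk3b of the beta-catenin destruction complex) and 6 of 7 nuclear genes or targets (such as Tcf7l1 and Myc). Of other receptors and polarity genes they marked 3 of 7 (Ror1, Ryk and Prickle1). Marked in both were also 2 of 7 R-spondins and their receptors (Rspo3 and Lgr4) and 0 of 2 genes of ligand secretion (Porcn and Wls). None of 9 further surface inhibitors was marked in both replicates. Kremen1 and Znrf3 had promoter H3K27ac in replicate 2, WT, the deletion list and fibroblasts, 4 had H3K4me2 alone (Kremen2, Sostdc1, Notum and Rnf43) and 3 had no peak in any list (Dkk4, Sost and Cer1). Dvl2 and Tcf7l2 were marked in both replicates and not in fibroblasts, and Nkd1 and Nkd2, which inhibit Dishevelled, in fibroblasts and in neither replicate. Nkd1 was also marked in WT (top 26.1%) and the deletion list (top 38.2%), and ranked lower in fibroblasts (top 85.0%). Nkd2 was marked in neither WT nor the deletion list.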

How the data were processed

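Peak lists of 6 ChIP-Seq libraries were analysed; an input library was not analysed here. The methods of the study name fastp, Bowtie2 (ver. 2.4.4), mm9 and MACS2 (ver. 2.2.4) with input as control. Chondrocyte H3K27ac replicate 1, H3K4me2 and fibroblast H3K27ac were deposited with a score only. The other 3 lists hold the score, fold enrichment and −log10 q that the authors deposited (lowest −log10 q, 1.33, 2.05 and 2.01 in replicate 2, WT and the deletion list). Scores only ranked peaks within a list, and the differences in calling were not corrected.

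Replicate 2 is on GRCm38 and was placed with RefSeq positions, so that it was compared by gene and by distance from the TSS, never by overlap of peaks; the other lists are on mm9 (GENCODE vM1). Of 22208 protein-coding genes in mm9, 20089 had a position in both. Each peak was assigned once per gene, to the promoter (within 1 kb of the TSS), the body or 50 kb around it, and 1 bp of overlap made a partner. Only chondrocyte H3K27ac was replicated, so no test was run, and the methods call the replicates biological without saying whether they came from separate animals. Promoter calls were checked on simulated lists, and overlaps of peaks between pairs of mm9 lists were checked against bedtools 2.31.1. Plots were drawn with matplotlib 3.10.9, and all else was computed with scipy 1.17.1, pandas 2.3.3 and numpy 2.4.6 under Python 3.11.15.

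The genes and lists were chosen with earlier results of these data known. The rule for genes described with values took those marked in both replicates and not in fibroblasts, the reverse, in all 6 lists, or in only 1 of WT and deletion, the 8 best-ranked H3K4me2 promoters without H3K27ac, and the 3 best-ranked distal peaks of each list. Other genes, and the distal peaks of single genes, were named after their values were seen. Alternatives were promoter windows of 500 bp and 2 kb, any transcript start, flanks of 20 and 100 kb, 50% reciprocal overlap, merging of peaks within 1 kb, the higher-scoring 50% or the top 19454 peaks of each list, omission of other genes' promoter peaks, WT in place of the replicates, and each replicate left out. Use of all 4 chondrocyte H3K27ac lists was added after the data were seen.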

Additional observations from a re-analysis of the deposited data

How the results depend on the processing

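Under the alternatives, 48 values stayed within 1.5 times the reported count or within the 95% interval of the reported share, and 15 did not. With the higher-scoring 50% of each list, fibroblasts marked 12 of the 44 promoters instead of 20 and 4 instead of 8 were marked in fibroblasts and in neither replicate, while the 1 gene marked in both replicates and not in fibroblasts became Wnt5a in place of Fzd9. With equal numbers of top peaks that count was 0. Frizzleds marked in both replicates fell from 7 to 4 under either of these settings. With WT in place of the replicates, or with none of the 4 chondrocyte H3K27ac lists allowed, 5 instead of 8 were marked in fibroblasts alone. Leaving out each replicate in turn gave 11 to 13 promoters marked in chondrocytes, 1 to 1 not in fibroblasts, 8 to 10 in fibroblasts alone and 30 to 32 with H3K4me2 alone. The share of replicate 1 peaks without a fibroblast peak (59.5%) became 73.0% with 50% reciprocal overlap, 37.3% with the higher-scoring 50% and 71.9% without other genes' promoter peaks, where the first and second of these gave 64.3% and 39.9% near all genes, and with equal numbers it was 52.4%, with 36.4%. The share of H3K4me2 peaks without H3K27ac (70.2%) became 88.1%, 76.4% and 62.1% with reciprocal overlap, the higher-scoring 50% and equal numbers. Near all genes these 3 settings gave 82.7%, 64.5% and 48.2%. With WT in place of replicate 1 the share near the 44 genes was 62.3%. For WT peaks without a deletion peak (37.8%) the same 3 settings gave 54.1%, 47.3% and 18.2%, with 50.6%, 27.7% and 15.0% near all genes. The difference from all genes was thus larger in the higher-scoring 50%. The cause was not tested, other than that reciprocal overlap can only raise such shares and that equal numbers remove peaks. No paired analysis was possible because replicate numbers above 1 were given for chondrocyte H3K27ac alone. With unknown depth, a promoter without a peak may lie below the limit of its list.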
